A study of Homo sapiens with 3 samples.

Results

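GPNMB, CTSK, ACP5, PMEL, MLANA, TYR, TYRP1, DCT and TRPM1 are 9 genes known as targets of MITF in pigment cells or osteoclasts, and their binding by HA-tagged TFE3 was examined in kidney cells. The genes were chosen by name. For each, the summits of both lists were taken from its hg19 span with 5 kb added on either side, which gave 14 of 62322 summits in replicate 1 and 19 of 72692 in replicate 2. Chromatin immunoprecipitation and sequencing (ChIP-seq) had been carried out with an anti-HA matrix in HK-2 cells, an established human line of kidney proximal tubule origin, that express HA-TFE3 in response to doxycycline. The series holds 2 replicate ChIP libraries and 1 input DNA library, all from the HA-TFE3-inducible line. Per the labels' protocols the cells were kept for 24 h with or without doxycycline at 0.2 µg/ml, and which libraries were treated is not given. The analysed data are lists of summits, single bases with a score. Exons and introns on hg19 and a control precipitation were not analysed here, and no expression of any of the genes was measured.

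MITF and TFE3 belong to the same small family of basic helix-loop-helix leucine zipper transcription factors, which bind E-boxes as homodimers or as heterodimers with each other. In melanocytes MITF is known to act through the M-box, an E-box of the form TCATGTG, in front of the genes for melanin synthesis. In mouse osteoclasts MITF and TFE3 are known to have overlapping roles, and CTSK and ACP5, which serve bone resorption, are known targets there. GPNMB, a transmembrane glycoprotein of melanosomes and lysosomes, is used as a marker of TFE3 activity in kidney tumours with TFE3 fusions.

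A shared summit is a summit of replicate 1 and one of replicate 2 that are each the nearest of the other and at most 100 bp apart. Of the 9 genes, 5 had a shared summit in their window, namely PMEL and TRPM1 with 4 each, GPNMB with 2, and CTSK and DCT with 1 each. ACP5, MLANA, TYR and TYRP1 had 0. The 12 shared summits made up 22.3 per Mb of the 538 kb in the 9 windows (95% exact Poisson interval 11.5 to 39.0), against 15.6 per Mb over chromosomes 1 to 22 and X. The genome value lies within that interval, which covers counting error only. The density of all summits was 26.0 per Mb (14.2 to 43.7) in the windows and 20.5 over the genome in replicate 1. It was 35.3 (21.3 to 55.2) in the windows and 23.9 over the genome in replicate 2. The windows differed widely among themselves, from 133 shared summits per Mb in the PMEL window to none in the 129 kb of the TYR window.

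Taken singly, 6 genes had a summit in replicate 1 and 7 in replicate 2. Among all 50 kb windows laid end to end along the chromosomes, 41.8% had a summit in replicate 1 and 45.3% in replicate 2. The gene windows themselves run from 15 to 171 kb. Averaged over windows of their 9 lengths, the share was 39.8% in replicate 1 and 43.0% in replicate 2. Windows of the same length as that of each gene were laid along the genome in the same way and counted for shared summits. At least 1 was present in 36.5% of windows as long as that of GPNMB, 22.5% for CTSK, 26.9% for PMEL, 37.7% for DCT and 61.5% for TRPM1. For the genes with no shared summit the same shares were 16.4% for ACP5, 27.5% for MLANA, 55.9% for TYR and 30.2% for TYRP1. The gene windows held 12 shared summits, against 8.39 for the genome windows when their means are summed over the 9 lengths. Windows laid along the genome include stretches without genes, so they are a base line for length and not for genes.

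**Figure D1:**
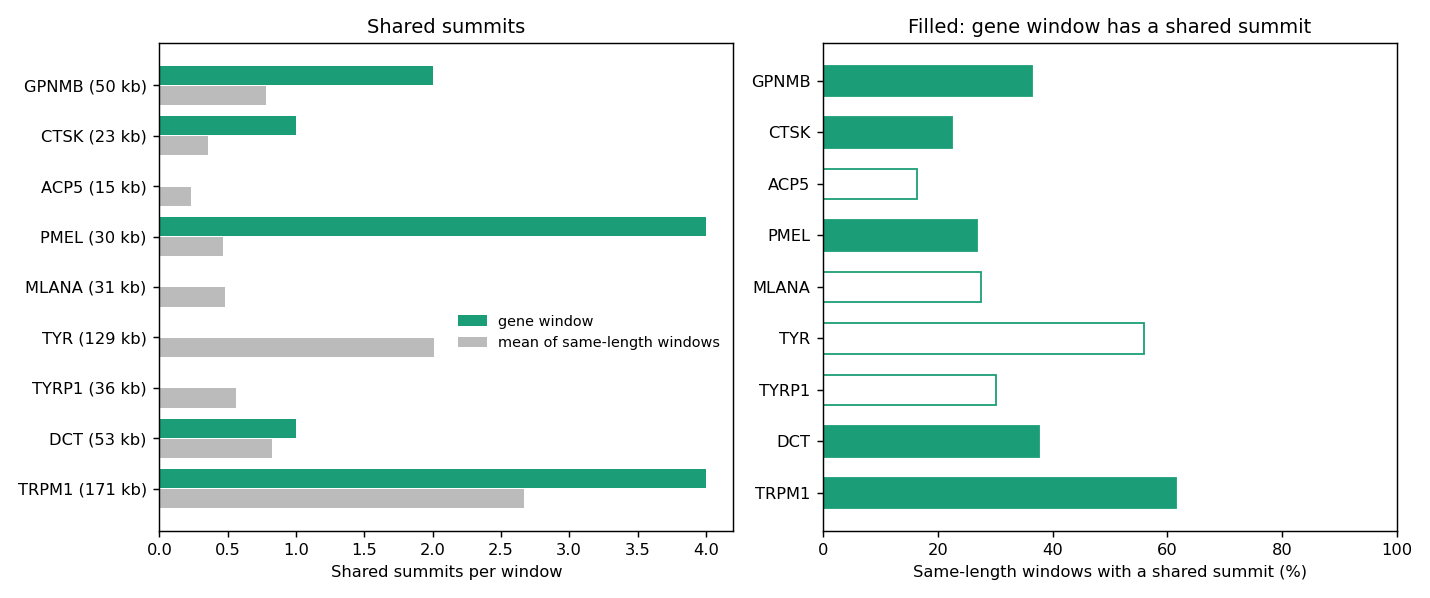
The left panel gives the shared summits in each gene window (green bars) and the mean over all genome windows of the same length (grey bars). The right panel gives the percentage of genome windows of the same length that hold a shared summit, filled where the gene window itself holds one. PMEL has 4 shared summits against a mean of 0.468, and TYR has 0 against a mean of 2.01.

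The highest-scoring summit of the group lay in the window of the pigment gene PMEL. PMEL encodes the amyloid protein on which melanin is laid down in melanosomes. Its span covers 56347 to 56367 kb of chromosome 12 on the minus strand. The leading shared summit lay 381 bp upstream of the 5′ end of that span, at base 56367381 in replicate 1 and 56367420 in replicate 2. It scored 36.4 in replicate 1, at percentile 96.7 of all scores in that list, and 43.2 in replicate 2, at percentile 97.7. It was the single shared summit of the 12 above the 90th percentile in both libraries, where 9.11% of all shared summits lie.

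The other 3 shared summits of the PMEL window lay inside the span, which is longer than the RefSeq gene, so they are not shown to lie inside PMEL. The one at base 56360554, 6.45 kb from the 5′ end, scored 14.0 in replicate 1 and 20.5 in replicate 2, at percentiles 71.3 and 83.9. Those at bases 56365993 and 56350059 scored 8.83 and 10.03 in replicate 1 and 8.38 and 9.78 in replicate 2, close to the middle of each list. Replicate 2 had one further summit at base 56359996, of score 4.01 and percentile 11.2, with no partner. The 3 shared summits nearest the 5′ end thus fell within a few kb of each other, with distances of 5439 and 1388 bp between neighbours. Of all 30 kb windows of the genome, 2.14% had at least 4 shared summits.

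The PMEL summits cannot be assigned to PMEL alone. In the RefSeq gene order CDK2, a cell cycle kinase, is the next protein-coding gene on the 5′ side of PMEL, followed by RAB5B, a GTPase of early endosomes. The span used is longer than the RefSeq gene, so its 5′ part may lie beyond the start of PMEL. Distances from the 5′ end of the span are therefore not shown to be distances from the start of PMEL. CDK2 is itself known as an MITF target in melanoma cells through the region it shares with PMEL. No hg19 positions of CDK2 or RAB5B were used here.

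**Figure D2:**
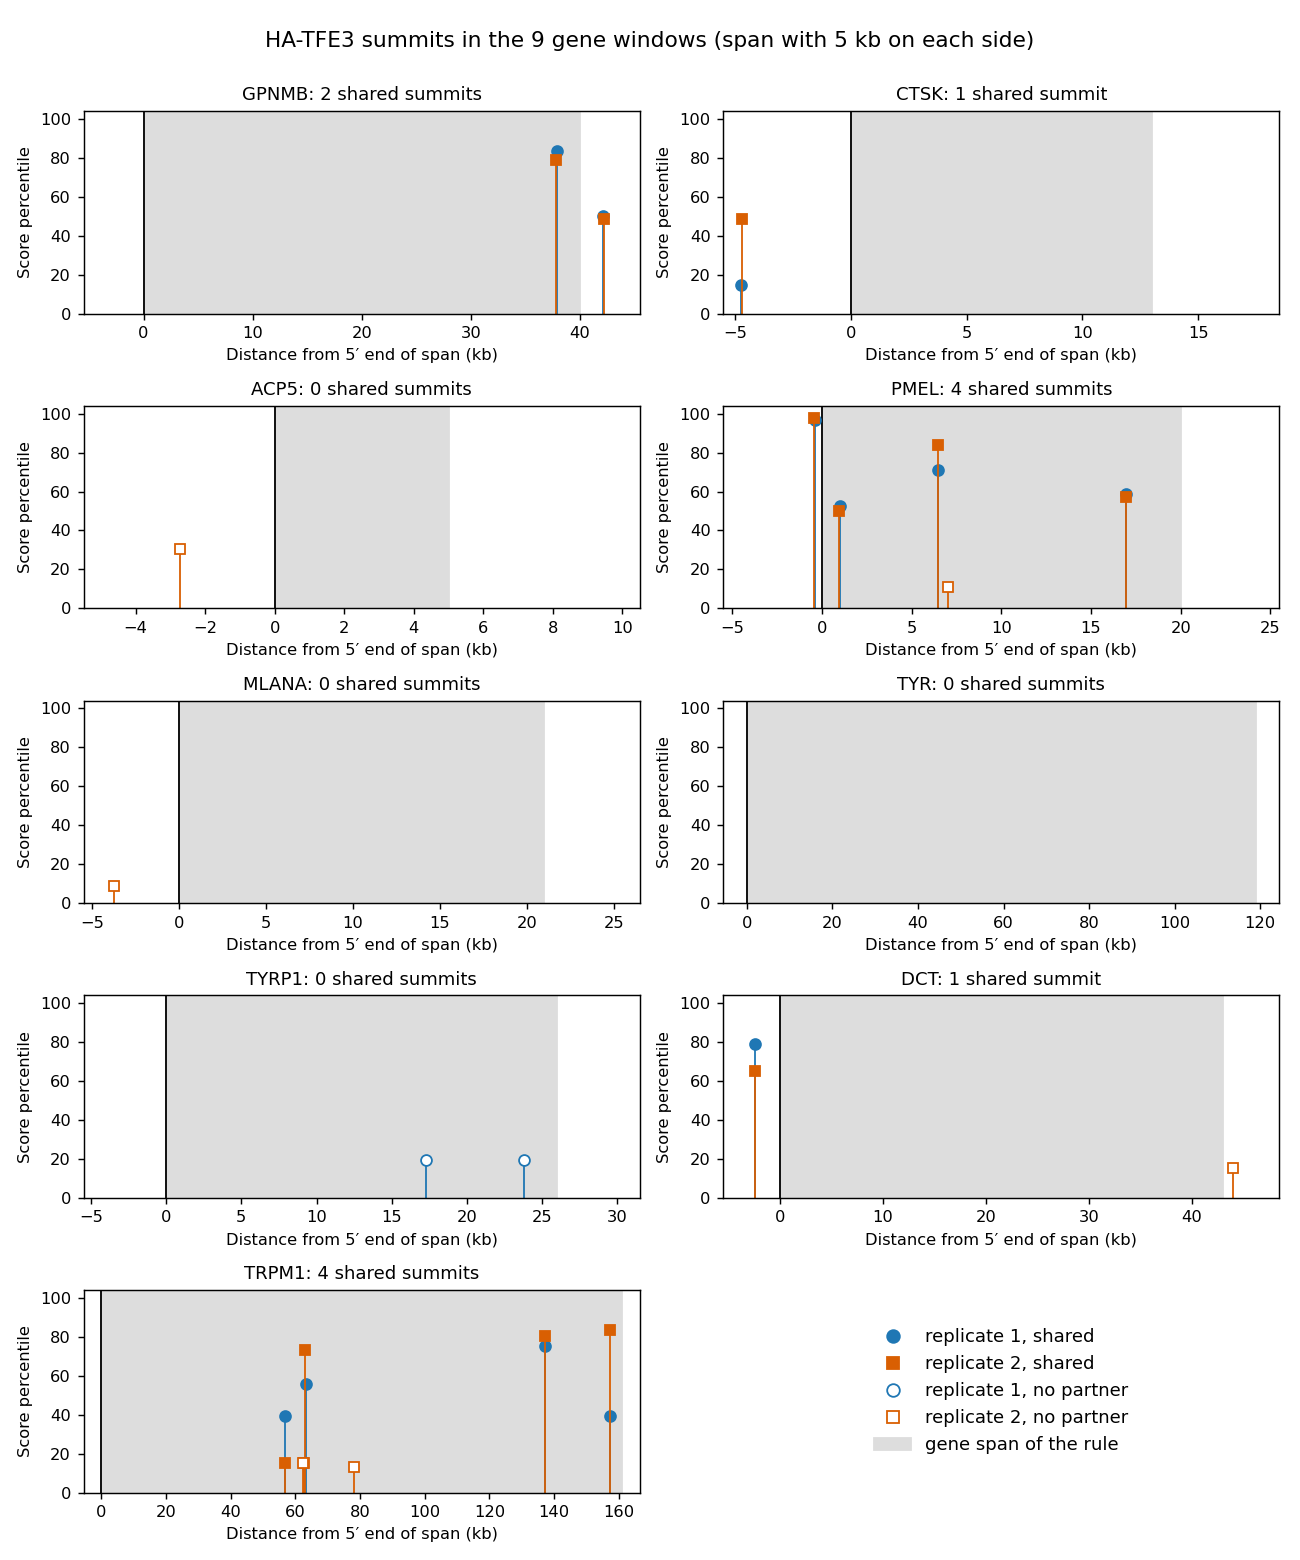
Each panel shows a gene window, with the distance from the 5′ end of the gene span in kb on the horizontal axis and the percentile of the summit's score in its own list on the vertical axis. Circles are replicate 1, squares replicate 2, filled symbols shared summits, open symbols summits with no partner, and grey the gene span. All shared summits of TRPM1 lie inside its span. Those of GPNMB and PMEL lie inside except 1 past the 3′ end of GPNMB and the highest of PMEL, upstream of its span. Those of CTSK and DCT lie upstream, and the panel of TYR is empty.

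GPNMB had both of its shared summits around its 3′ end, and neither list had a summit over the rest of the gene. Its span, longer than the RefSeq gene, covers 23275 to 23315 kb of chromosome 7 on the plus strand. The first shared summit lay 2.11 kb before the 3′ end of the span, at base 23312888 in replicate 1 and 23312839 in replicate 2. It scored 19.3 and 17.9, at percentiles 83.5 and 79.1, the second highest of the 12 by mean percentile. The other lay 2.17 kb past the 3′ end, at base 23317165 in replicate 1 and 23317184 in replicate 2. It scored 8.55 and 8.30, at percentiles 50.1 and 48.7. On neither summit did the libraries differ by more than 4.36 percentile points.

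Neither list had a summit from base 23270000, where the GPNMB window begins, to base 23312838. This stretch of 42.8 kb takes in 94.6% of the span, and with it any start site of GPNMB more than 2.16 kb from the 3′ end. Beyond the window on the 3′ side, a shared summit on the same base of both libraries, 23338883, lay 23.9 kb from the span. It scored 17.0 in replicate 1 and 38.8 in replicate 2, at percentiles 78.9 and 96.6. In the RefSeq gene order the next protein-coding gene on that side is MALSU1, a factor of mitochondrial ribosome assembly.

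The letters in front of GPNMB are shown because that promoter holds the motif while the lists hold no summit over the 5′ part of the gene. RefSeq gives 1 start for GPNMB, and the stretch below is chr7:23246625-23246774 of GRCh38.p14 on the plus strand, the 150 bases before that start, written 5′ to 3′. These coordinates are on another build than the summits and were not set against them. Capitals mark matches to TCACGTG or TCATGTG on either strand, here read as the reverse complement CACATGA.
GPNMB: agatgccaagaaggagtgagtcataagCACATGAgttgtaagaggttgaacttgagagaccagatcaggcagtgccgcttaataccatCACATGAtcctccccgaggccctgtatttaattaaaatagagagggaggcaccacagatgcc
The matches begin 123 and 62 bases before the start. A match describes the letters and is not shown to be a binding site.

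TRPM1, a cation channel of melanocytes and retinal bipolar cells, had 4 shared summits spread over its long body, from 31293 to 31454 kb of chromosome 15 on the minus strand. A summit 23.7 kb before the 3′ end, at base 31316716 in replicate 1, scored 15.5 in replicate 1 and 18.3 in replicate 2, at percentiles 75.3 and 80.3. The one nearest the 3′ end, at base 31296593, scored 7.12 in replicate 1 and 20.4 in replicate 2. Its percentiles of 39.4 and 83.5 were the furthest apart of the 12 pairs, so its rank differed with the library.

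The other shared summits of TRPM1 lay 63.1 and 56.8 kb from the 5′ end. The first scored 9.89 in replicate 1 and 15.0 in replicate 2, and the second 7.12 and 4.41. Replicate 2 alone had 3 more summits in the gene, of scores 4.36, 4.41 and 4.41, and 2 of them followed the shared summit at base 31390867 at 493 and a further 321 bp. No summit of either library lay within 5 kb of the 5′ end of the span. RefSeq gives 2 starts for TRPM1 on GRCh38.p14, and the other was not set against the summits. A summit inside the span is thus not shown to be far from a start. TRPM1 is known as the host gene of MIR211, which lies within it in the RefSeq table and is itself under MITF control in melanocytes. The count of 4 was near the mean of 2.67 for windows of 171 kb, of which 28.1% held at least as many.

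TYR, TYRP1 and DCT encode the 3 related enzymes of melanin synthesis, and 1 of them, DCT, had a shared summit. Over their 218 kb this was 4.59 shared summits per Mb (95% exact Poisson interval 0.116 to 25.6), an interval that holds the 15.6 per Mb of the genome. TYR, which catalyses the first and rate-limiting step, had 0 summits in either library over its span of 88910 to 89029 kb on chromosome 11. The nearest summits of any kind lay at bases 88242466 and 89846888, so the gene sat in a stretch of 1600 kb with none. Stretches without a shared summit at least as long as that around TYR, 1710 kb, make up 10.9% of the length between shared summits. Among windows as long as that of TYR, 55.9% of the genome's and 51.2% of those on its own chromosome had a shared summit.

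TYRP1, which stabilises tyrosinase and acts later in the pathway, had 2 summits in replicate 1 and 0 in replicate 2. Its span, longer than the RefSeq gene, is 12685 to 12711 kb of chromosome 9 on the plus strand. Both of its summits, at bases 12702313 and 12708771, scored 4.83, at percentile 19.2 of the list. The stretch without a shared summit around TYRP1 was 2800 kb, longer than that around TYR. Stretches at least as long make up 6.85% of the length between shared summits. The nearest shared summit lay 65.5 kb from the span of TYRP1 on the 3′ side. DCT, the dopachrome tautomerase, had 1 shared summit 2.44 kb upstream of its span, which covers 95089 to 95132 kb of chromosome 13 on the minus strand. It lay at base 95134435 in replicate 1 and 95134459 in replicate 2, with scores of 17.0 and 12.2 and percentiles of 78.9 and 65.1. A summit of replicate 2 past the 3′ end of DCT scored 4.41 and had no partner, and no summit of either library lay inside the span.

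The promoters of these enzymes all hold the M-box letters, while only the window of DCT had a shared summit. That summit lay 2.44 kb upstream of the span and is not shown to lie at the matches. The 60 bases around each match are shown for comparison. They are from RefSeq on GRCh38.p14, written 5′ to 3′ on the strand of the gene, with capitals as for GPNMB. The stretch of TYR is chr11:89177743-89177802 on the plus strand, that of TYRP1 chr9:12693213-12693272 on the plus strand, and those of DCT chr13:94479865-94479924 and chr13:94479785-94479844 on the minus strand.
TYR: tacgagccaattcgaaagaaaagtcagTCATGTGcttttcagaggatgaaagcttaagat
TYRP1: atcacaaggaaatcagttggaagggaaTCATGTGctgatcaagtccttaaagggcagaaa
DCT, distal: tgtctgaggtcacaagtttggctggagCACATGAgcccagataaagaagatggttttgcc
DCT, proximal: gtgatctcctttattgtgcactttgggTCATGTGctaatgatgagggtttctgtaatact
TCATGTG began 105 bases before the start in TYR and 145 in TYRP1. In DCT the matches began 215 and 135 bases before the start. RefSeq gives 2 starts for DCT, and the other window of DCT held none of the motifs.

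MLANA, a melanosome protein recognised by T cells in melanoma, had 0 shared summits over 5890 to 5911 kb of chromosome 9 on the plus strand. Replicate 2 alone listed a summit 5′ of it at base 5886261, with a score of 3.49 and a percentile of 8.66, the lowest of all summits in the windows. The nearest shared summit lay 45.1 kb from the span on the 5′ side. In the RefSeq table MLANA lies within BRD10, so a summit there could not be assigned to MLANA alone.

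Of the osteoclast genes, CTSK had a weak shared summit near the edge of its window and ACP5 had none. CTSK encodes cathepsin K, the protease that degrades bone collagen, over 150768 to 150781 kb of chromosome 1 on the minus strand. Its summit lay 4.74 kb upstream of the span, at base 150785737 in replicate 1 and 150785711 in replicate 2. It scored 4.54 in replicate 1, at percentile 14.5, and 8.30 in replicate 2, at percentile 48.7. In the RefSeq gene order ARNT, the partner of hypoxia-inducible factors, is the next protein-coding gene on that side. No summit of either library lay inside the span of CTSK.

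ACP5 encodes the tartrate-resistant acid phosphatase used to stain osteoclasts, over 11685 to 11690 kb of chromosome 19 on the minus strand. Replicate 2 alone had a summit upstream of it, at base 11692737, with a score of 5.74 and a percentile of 30.3. Shared summits lay just outside the window, 5.79 kb past the 3′ end and 8.68 kb upstream. The first of these scored 9.42 in replicate 1 and 10.5 in replicate 2, and the second 9.91 and 8.30. The CTSK summit at 4.74 kb and the ACP5 summit at 5.79 kb were the nearest on the inner and outer side of the 5 kb limit. With 10 kb added in place of 5 kb, ACP5 counted 2 shared summits, and with none added CTSK and DCT counted 0.

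ACP5 has 4 windows in the RefSeq promoter table, and the letters of one of them are shown because it held both kinds of E-box. The stretch is chr19:11577728-11577787 of GRCh38.p14 on the minus strand, with capitals as above, and its match began 115 bases before the start.
ACP5: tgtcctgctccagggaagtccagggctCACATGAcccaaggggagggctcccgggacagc
CACGTG began 181 bases before the same start.

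Promoter windows of 250 bases before to 50 after a start were found in the RefSeq table for 7 of the 9 genes, all but CTSK and PMEL. TCACGTG or TCATGTG, read on both strands, was present for 5 of the 7, namely GPNMB, ACP5, TYR, TYRP1 and DCT. Over all promoter windows of the table the share was 6.52%, and over all its genes 7.89%. CATGTG, which is part of TCATGTG, was present for these 5 and TRPM1, against 11.1% of all windows and 13.4% of all genes. CACGTG was present for ACP5 alone, against 7.26% of all windows and 8.77% of all genes. Of the 5 genes with the longer motif, GPNMB and DCT had a shared summit in their window and ACP5, TYR and TYRP1 did not. MLANA held none of the 3 motifs. These genes were known as MITF targets, in part through such motifs, before they were listed, so their share of motifs is no independent result.

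Other genes of the same programmes were described by their promoters only, since their hg19 spans were not used here. Of 10 further pigment genes, 8 had a promoter window and 3 of those, SLC24A5, GPR143 and BCL2A1, held TCACGTG or TCATGTG. Of 12 further osteoclast genes, 6 had a window and 1, CLCN7, a chloride transporter of the resorbing membrane, held it. Over all genes of the table the share was 7.89%. CATGTG was held by 5 of the 8 pigment genes and by CLCN7, against 13.4% of all genes. CACGTG was held by 0 of the 8 and by CLCN7, against 8.77%. These genes too were chosen by name for known roles, so their share of motifs is no independent result.

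The shared summits of the group were mostly of middle score. Replicate 1 had percentiles between 14.5 and 96.7, of median 57.2, against a median of 59.1 over all 47396 shared summits. Replicate 2 had 15.3 to 97.7, of median 69.2, against 64.3 over all shared summits. At percentiles above 75 in both libraries were 3 of the 12, against 24.7% of all shared summits. The 3 were the leading summits of the PMEL, GPNMB and TRPM1 windows. The paired bases lay 10 to 58 bp apart with a median of 25 bp, against 26 bp over the genome.

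The 2 summits without a partner in replicate 1 stood at percentile 19.2, against a median of 24.8 over all such summits of the list. The 7 in replicate 2 lay between 8.66 and 30.3, of median 15.3, against a median of 27.4 over all such summits of the list. Summits without a partner thus had low medians in the series, though the highest stood at percentile 99.9 in replicate 1 and 100 in replicate 2. Many low scores are repeated exactly in the lists, which limits how finely they can be ranked. The score of the TYRP1 summits, 4.83, was held by 2043 summits of replicate 1, and 4.41, found in TRPM1 and DCT, by 1954 of replicate 2. The lists hold only summits above the authors' limit, so a window with none is not shown to lack binding.

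**Figure D3:**
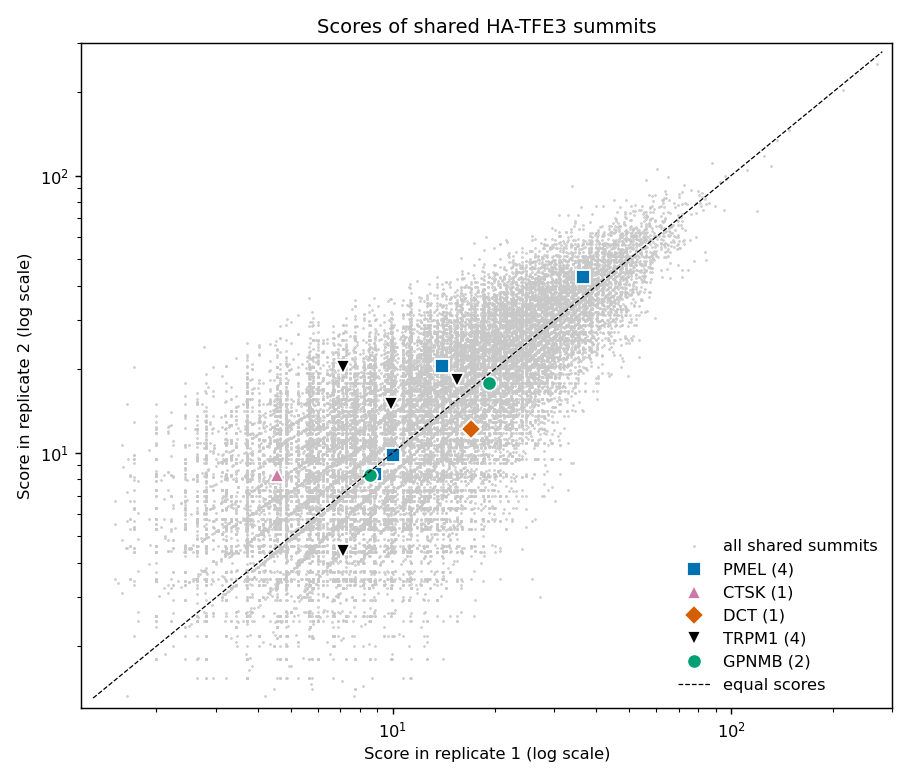
Scores of shared summits in replicate 1 (horizontal axis) and replicate 2 (vertical axis), both on log scales, with all 47396 pairs in grey and the 12 of the 9 genes in colour. The dashed line marks equal scores. The leading summit of the PMEL window, which cannot be assigned to PMEL alone, stands at 36.4 and 43.2. The CTSK summit has the lowest score of the 12 in replicate 1, 4.54.

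The chromosome bands around the genes differed in how many shared summits they held. TYR lies in band 11q14.3, of 100% Giemsa stain, which had 3 shared summits in 4.5 Mb, or 0.667 per Mb. TYRP1 lies in 9p23, of 75% stain, with 2.69 per Mb. DCT in 13q32.1 and MLANA in 9p24.1, both unstained, had bands of 9.06 and 10.9 per Mb. The bands of GPNMB, TRPM1 and PMEL, 7p15.3, 15q13.3 and 12q13.2, had 18.3, 20.8 and 27.1 per Mb. Those of CTSK and ACP5, 1q21.3 and 19p13.2, had 44.7 and 49.6. Of these bands, those of PMEL and ACP5 have 25% stain and the others are unstained. The gene in the densest band, ACP5, thus had no shared summit in its window of 15 kb, as did the genes in the 2 sparsest bands. Whether the band sets the count of any gene was not tested.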

How the data were processed

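The files deposited by the authors list, for each of 2 HA-TFE3 ChIP libraries, summits 1 bp long, each carrying the score the authors gave it. No source used here states the scale of this score, which served only to rank summits inside a list. The submitters' processing notes name hg19 as the build. Aligner, peak caller, threshold and any use of the input: not given in the sources used here. Depth is unknown because no read counts were analysed. Nothing says that the replicates came from separate cultures.

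Only chromosomes 1 to 22 and X entered the counts, with 62287 and 72647 summits. Gene spans were those of the rule for the 9 genes, rounded to the kb, with 5 kb added at each end. Summits were paired as mutual nearest within 100 bp. Percentiles are ranks in a list, with ties averaged. Background windows did not overlap. Bands and chromosome lengths came from circlize 0.4.16 (R 4.3.3). The RefSeq tables are on GRCh38.p14, so only names, gene order and promoter letters were taken from them. No test was run, since the lists hold no compared group. Pairing and window counts were tested on simulated lists. Python 3.11.15, NumPy 2.4.6, pandas 2.3.3, SciPy 1.17.1 and matplotlib 3.10.9 were used.

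The genes, lists and motifs were chosen with earlier results of these data known. All 9 genes and every shared summit in their windows were named. The planned motif search at summits and the protein identities were not run, as no hg19 sequence and no protein table were used. Alternatives were other pairing limits, flanks, score limits, single libraries and other window layouts.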

Additional observations from a re-analysis of the deposited data

How the results depend on the processing

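Without one replicate, 6 to 7 genes had a summit, with 14 to 19 summits in all and a mean share of same-length windows of 39.8% to 43.0%, against 5 genes, 12 summits and 35.0% for shared summits. With no flank 3 genes had a shared summit. Among summits above the median score, 7 shared summits, 23.6% of windows and a median mean percentile of 77.6 resulted, against a main value of 63.0. Among the 10000 highest-scoring summits these were 1 (1 gene, PMEL), 9.66% and 97.2. Pairs within 50 bp gave 31.6% of windows. CACGTG was held by 1 gene, CATGTG by 6 and the longer motif by 5. The other values for the group stayed within 1.5 times, or within the spread between libraries, with limits of 50, 200 and 500 bp, flanks of 10 and 20 kb and shifted or own-chromosome windows. Of 90 counts for single genes, 72 stayed within 1.5 times. The 72 include counts of 0 in both the main and the alternative setting, for which that limit shows nothing. TYR had 0 under all the alternatives. Percentiles rise with a score limit by construction. No paired analysis was possible because the input library has no values here and no groups were compared. Depth, the caller's threshold and the kb rounding of the spans limit each count.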
